A study of Mus musculus with 12 samples.

Results

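The genes of the cytosolic ribosomal proteins were followed across 10 RNA libraries of mouse CD4+ T cells. Members were taken by name: every locus whose symbol is Rpl or Rps followed by a number, leaving out the Rps6k kinases and names marked as pseudogenes. This gave 82 of the 23700 loci in each file. Of these, 43 encode proteins of the large subunit and 30 proteins of the small subunit. The other 9 were 8 paralogs of such proteins (Rpl3l, Rpl7l1, Rpl10l, Rpl22l1, Rpl36al, Rpl39l, Rps27l and Rps4y2) and Rps19bp1, which encodes a binding partner of Rps19 and not a ribosomal protein.

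The study set wild type against Bach2-deficient induced regulatory T (iTreg) cells by RNA sequencing and mapped the binding of the transcription factor Bach2 in wild type iTreg cells by chromatin immunoprecipitation (ChIP), with 1 ChIP and 1 input library. All cells came from spleen and lymph nodes of C57BL/6J mice and were sorted as naive CD4+ T cells. The naive library was from fresh cells, and the other 9 came from cells kept for 3 days on plate-bound antibodies to CD3 and CD28, at 10 μg/ml each. The wild type Th1 culture received IL-12 (20 ng/ml) with an antibody to IL-4. The wild type Th2 culture received IL-4 (20 ng/ml) with an antibody to IFN-γ. The wild type Th17 culture received IL-6 (20 ng/ml), human TGF-β1 (2 ng/ml) and both antibodies, each of which was used at 10 μg/ml. The iTreg cultures, 3 wild type (WT) and 3 Bach2-deficient (Bach2KO), received IL-2 (100 IU/ml) and human TGF-β1 (5 ng/ml) and the labels name no neutralizing antibody for them. The Bach2KO allele, the number of mice and whether replicates were separate mice or separate cultures are not given in the labels, so p-values measure only the spread between these libraries. Naive, Th1, Th2 and Th17 had 1 library each and carry no test.

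A ribosome joins a small subunit, which reads the messenger RNA, to a large subunit, which forms the peptide bond, and each subunit is built from ribosomal RNA and many small basic proteins that are needed in equal numbers. Their messenger RNAs are among the most abundant of a cell, begin with a short run of pyrimidines (the 5′ terminal oligopyrimidine or TOP tract) through which mTOR controls their translation, and the genes have left many processed pseudogenes in mammalian genomes. T cells that leave the resting state grow before they divide and raise ribosome production.

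Expression is given as FPKM, fragments normalized to transcript length and to the number of mapped fragments. Reads implied by the deposited confidence bounds came to between 12.4 M and 24.0 M (M for 1e+06) per library over loci with a single start. Summed FPKM was 432450 to 437849 in the 3 WT and 545183 to 553892 in the 3 Bach2KO iTreg libraries, with no overlap. Bach2, the targeted gene, was at 17.9, 17.7 and 17.2 FPKM in WT and at 3.91, 3.39 and 4.12 FPKM in Bach2KO replicates 1 to 3. The CD4 T cell markers (8 of 8 detected) summed to 1909 to 1939 FPKM in WT and 1869 to 2004 FPKM in Bach2KO. The 6 B cell markers summed to 16.6 to 109 and 23.0 to 36.1 FPKM, the 5 myeloid markers found to 3.05 to 4.29 and 0.127 to 0.423 FPKM, and the 4 CD8 and NK cell markers to 4.51 to 5.47 and 11.1 to 12.1 FPKM. The myeloid marker Lyz2 was listed at 0 in all WT libraries and the NK marker Ncr1 in all Bach2KO libraries. The 3 erythroid markers summed to at most 0.0390 FPKM in WT and 0.485 to 0.803 FPKM in Bach2KO. The part of such cells in the member values was not tested, and in bulk RNA fewer cells of a type and less RNA per cell cannot be told apart.

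Ribosomal protein genes were highly expressed in every library. By median FPKM they were lowest in the fresh naive cells and highest in the Th1 and Th2 cultures. Summed FPKM over all loci was 303348 in naive cells and 430495 to 553892 elsewhere. The members' share of it was 12.0% in naive cells, 15.55% in Th1, 15.0% in Th2 and 11.8% in Th17. That share was 10.7% to 11.1% in WT and 9.53% to 10.5% in Bach2KO iTreg. Their share of implied reads was lowest in naive cells (3.52%, against 3.85% or more elsewhere). The median member stood at 305 FPKM in the naive library, 739 in Th1, 747 in Th2, 515 in Th17, 473, 459 and 478 in WT iTreg replicates 1 to 3, and 550, 549 and 587 in Bach2KO iTreg replicates 1 to 3. Of the 82 genes, 61 reached 100 FPKM in naive cells, 68 in Th1 and in Th2, 67 in Th17, 65 in each WT iTreg library and 68 or 69 in the Bach2KO libraries. The highest means over the 10 libraries were those of Rpl41, a very short large-subunit protein (2080 FPKM), Rps18 (1960), Rps9 (1777) and Rps20 (1700). The lowest were 4 paralogs: Rpl10l at 0.00394 FPKM, Rpl3l at 0.0434, Rpl39l at 0.427 and Rps4y2 at 1.19. Some core proteins that every ribosome carries were also listed far below the median, with means of 2.56 FPKM for Rpl21, 7.41 for Rpl26, 14.01 for Rps27, 33.0 for Rpl30 and 38.7 for Rpl7a.

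**Figure D1:**
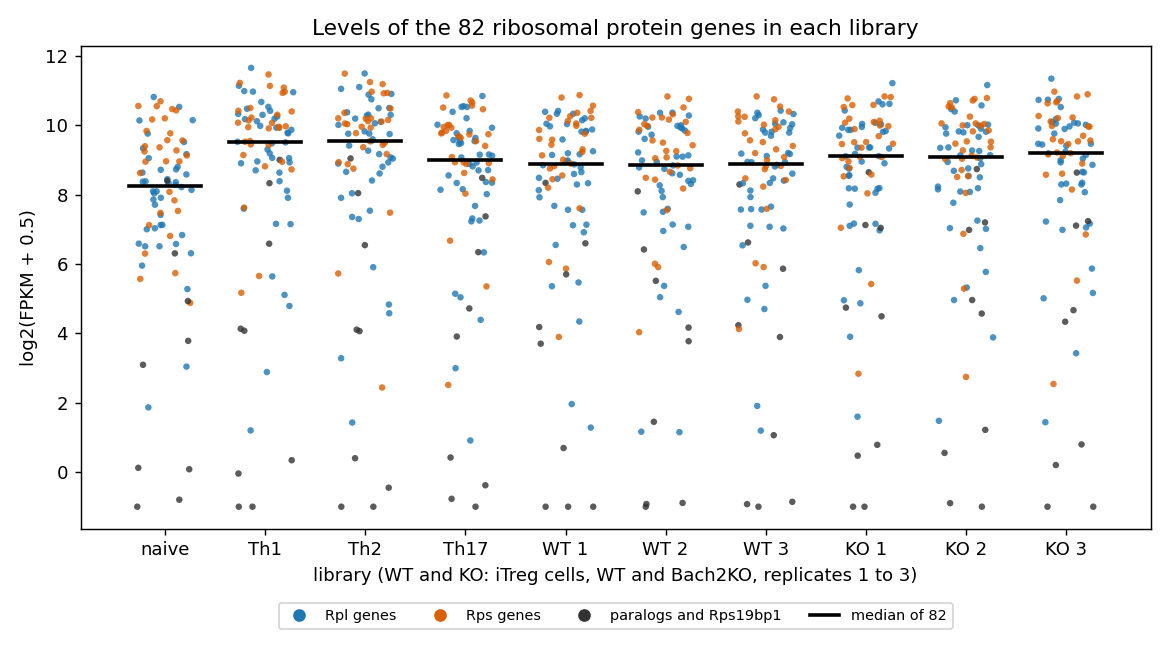
Level of each of the 82 genes, as log2(FPKM + 0.5), in each of the 10 libraries, with 1 point per gene and a bar at the median. The median is lowest in the naive library (305 FPKM) and highest in Th1 and Th2 (739 and 747 FPKM), and a tail of low members is present in every library.

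Replicates agreed closely for most members. Over the 79 members that averaged 0.5 FPKM or more in the 6 iTreg libraries, the median coefficient of variation was 2.17% in WT and 4.64% in Bach2KO, against 5.33% and 7.77% over all 11473 genes tested. The largest in WT was that of Rpl23a, a large-subunit protein at the peptide exit, with 34.8%. Its levels were 388 and 381 FPKM in WT replicates 1 and 2 and 192 FPKM in WT replicate 3, while the deposited bounds of the third value were 183 and 200 FPKM. The replicates of 6 members in WT and of 7 in Bach2KO varied by more than 10%.

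Only unique 50-base reads were used, according to the labels' protocols, which do not state whether this means uniquely mapping or distinct reads. If it means uniquely mapping reads, the FPKM of a member rests on the reads its sequence can hold on to. For 81 members with a coding sequence in the annotation of the same build, every 50-base window of that sequence was looked up in the genome. A median of 10.4% of the windows occurred nowhere else, 64 members had under 50% such windows, and 28 had none. Rpl3l, Rpl39l and Rps19bp1 were unique throughout. The 76 genes of mitochondrial ribosomal proteins, which serve a separate ribosome, had a median of 100%. Rpl7a had matches at 129 other places, Rpl29 at 90, Rpl21 at 86, Rps2 at 78 and Rpl17 at 57, counting matches within 2000 bases as 1 place. For 3 of these, a 50-base window is shown to make the repetition visible, each 5′ to 3′ on the gene's strand and read from NCBIM37 (mm9): within Rpl7a (chr2:26766327-26768831, plus strand), with 45 exact matches elsewhere; within Rpl29 (chr9:106331870-106333898, plus strand), with 32; and within Rpl21 (chr5:147644466-147648608, plus strand), with 44.
Rpl7a: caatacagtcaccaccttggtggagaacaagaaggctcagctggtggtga
Rpl29: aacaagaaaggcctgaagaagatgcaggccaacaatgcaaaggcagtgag
Rpl21: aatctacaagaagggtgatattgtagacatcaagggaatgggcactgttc
The 5 members with at least 50 such places had means of 2.56 to 150 FPKM, against a median of 590 FPKM for the other 76. Across all 81, the share of unique windows and the mean level were nearly unrelated by rank (Spearman's rho 0.06, Pearson's r −0.34, genes of the same libraries, given as a description). Windows that cross splice junctions or lie outside the coding sequence were not counted apart.

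Compared with fresh naive cells, most ribosomal protein genes were higher in the helper cultures, and more so in Th1 and Th2 than in Th17. Each comparison sets 1 library, or the mean of 3, against the same naive library, so there is no replicate check and the comparisons share that library. In Th1, 43 of 80 members were at least 2-fold higher and 5 at least 2-fold lower, where 29.0% of the 11409 genes averaging 0.5 FPKM or more were higher by that much and 9.87% lower. The median member difference was 1.06 on the log2(FPKM + 0.5) scale, beside 0.37 over all genes. In Th2 the counts were 42 higher and 6 lower of 79, beside 27.5% and 11.8% of all genes, with a median of 1.03 beside 0.28. In Th17 they were 25 and 6 of 79, beside 24.4% and 7.53%, with a median of 0.67 beside 0.35. In the mean of the WT iTreg libraries they were 20 and 6 of 79, beside 17.1% and 3.81%, with a median of 0.41 beside 0.31. In the mean of the Bach2KO iTreg libraries they were 29 and 6 of 80, beside 27.0% and 6.25%, with a median of 0.73 beside 0.41.

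These sizes depended on the scaling. After quantile normalization the members at least 2-fold higher numbered 18 in Th1 and in Th2, 10 in Th17, 10 in WT iTreg and 9 in Bach2KO iTreg, and the median member difference became 0.37, 0.36, 0.16, 0.00 and −0.15. Over all genes the shares at least 2-fold higher were then 18.6%, 18.8%, 14.8%, 9.45% and 14.8%, with medians of −0.13, −0.15, −0.12, −0.09 and −0.16. The direction of the Bach2KO median against naive cells therefore turned with the scaling, while the Th1, Th2 and Th17 medians stayed above 0 under the settings tried. On the authors' scaling, large-subunit genes had higher medians against naive cells than small-subunit genes. The values were 1.20 and 0.77 in Th1, 1.21 and 0.81 in Th2, 0.72 and 0.28 in Th17, and 0.42 and 0.32 in WT iTreg. Subunit medians against naive cells were not taken after rescaling.

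The largest differences came from a few genes at which the naive library stood apart from all others. Rps29, a zinc-binding small-subunit protein, was at 78.5 FPKM in naive cells and at 979 to 1237 FPKM in the other 9 libraries. Rpl34 was at 128 FPKM in naive cells and at 908 to 1445 FPKM elsewhere. Rps12 was at 52.95 FPKM in naive cells, 1374 in Th1, 1170 in Th2, 887 in Th17, 290 to 301 in WT iTreg and 420 to 478 in Bach2KO iTreg libraries. Rps12 thus also separated the helper libraries from both kinds of iTreg library. The implied reads behind the naive values were 479 for Rps29, 851 for Rpl34 and 555 for Rps12, so counting error was small beside these differences. Implied reads do not cover repeated sequence. The share of unique coding windows was 0% for Rps29, 28.5% for Rpl34 and 0% for Rps12, with matches at 7, 9 and 23 other places. The part of this in their levels was not tested.

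At the other end, a handful of members were much higher in the naive library. Rpl29 was at 425 FPKM there and at 32.4 to 59.6 FPKM in the other 9. Rpl7a was at 140 FPKM in naive cells and at 19.8 to 35.4 FPKM elsewhere, and Rpl21 at 7.74 and at 1.38 to 2.53 FPKM. Rps21 was at 1660 FPKM in naive cells and at 490 to 615 FPKM elsewhere, and Rpl17 at 349 and at 80.5 to 157 FPKM. Rpl29, Rpl7a, Rpl21, Rpl17 and Rps2 are the 5 members with the most copies in the genome, and all 5 were higher in the naive library than in every WT iTreg library, as were 14 of the other 76. The naive value was the highest of the 10 libraries for 4 of the 5 and for 2 of the 76, and Rps2 was higher in Th1 and Th2. The median difference of WT iTreg from naive was −1.83 for the 5 and 0.44 for the 76. By rank over all 81, this difference was nearly unrelated to the number of places (Spearman's rho −0.08, Pearson's r −0.56). For Th1 minus naive the values were 0.04 and −0.48, so the contrast lay in the 5 and not in a trend across the members. The number of reads per unit of FPKM, which depends on the transcript length the software used, was 0.984 of its usual value for members in the naive library (median of 70 members, range 0.931 to 1.01), and between 0.999 and 1.00 as a median in the other 9. The naive library thus also stood apart in a quantity that belongs to the processing, and the part of that in its member levels was not tested.

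**Figure D2:**
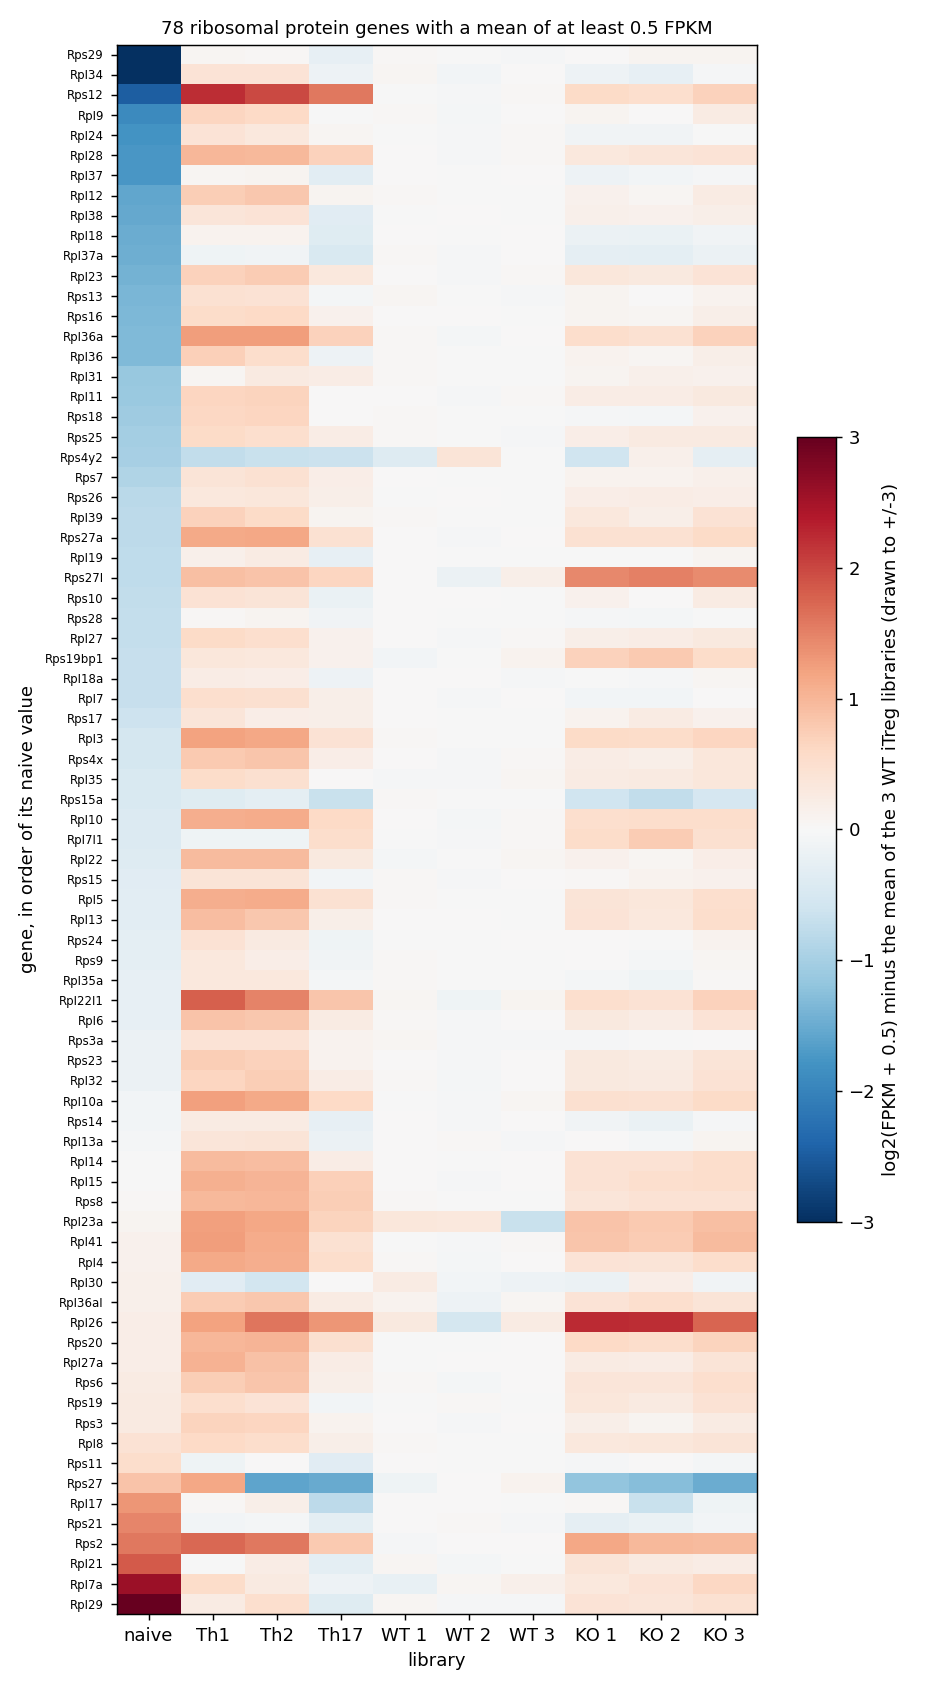
Difference of each library from the mean of the 3 WT iTreg libraries, on the log2(FPKM + 0.5) scale, for 78 members that averaged 0.5 FPKM or more in the 10 libraries, in order of their naive value. The naive column runs from Rps29, far below the WT iTreg mean, to Rpl29, far above it, and Rps27, Rpl26, Rps12 and Rps27l stand out among the cultures.

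**Figure D3:**
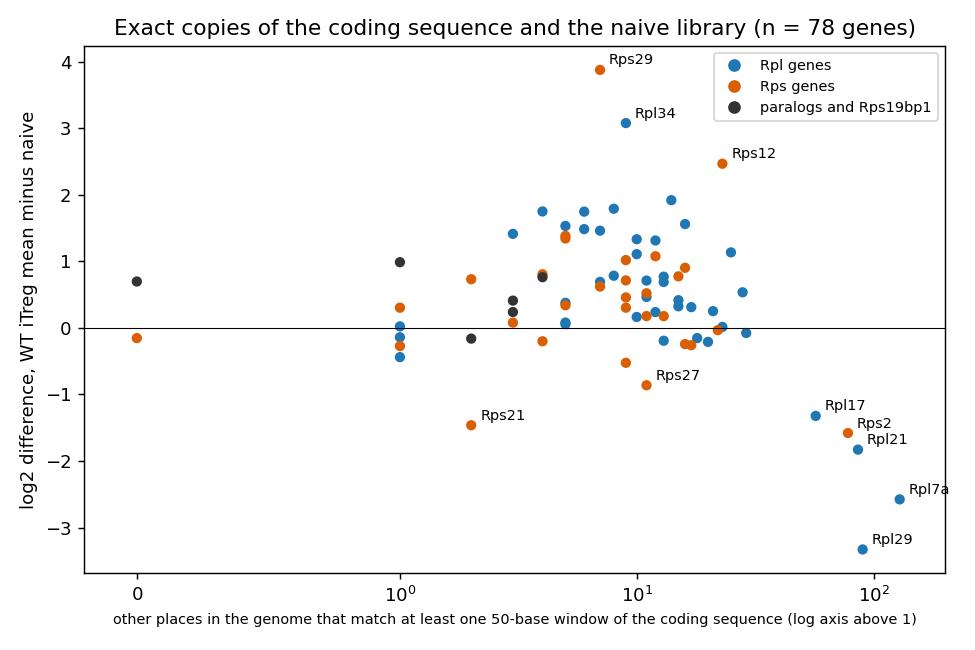
Difference of the WT iTreg mean from the naive library against the number of other genomic places that match a 50-base window of the coding sequence exactly, 1 point per gene. The 5 genes with at least 50 places all lie below 0, and Rps29, Rpl34 and Rps12, with 7, 9 and 23 places, lie highest.

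Among the helper cultures, Th1 and Th2 held nearly the same ribosomal protein profile. Of 79 members, 58 differed by at most 0.1 on the log2 scale between the 2 libraries and 78 by at most 0.5, where 79.02% of all 11697 genes stayed within 0.5. A single member, Rps27, was past 2-fold, as were 7.42% of all genes: it was at 35.6 FPKM in Th1 and 4.92 in Th2. In Th17, 74 of 79 members were lower than in Th1 and 75 lower than in Th2, with median differences of −0.51 and −0.48, while the medians over all genes were 0.00 and 0.04. After quantile normalization 68 and 69 members were lower, with medians of −0.26 and −0.31, beside 0.0119 and 0.0071 over all genes. The exceptions included Rpl7l1, a nucleolar relative of Rpl7, at 16.4 FPKM in Th1, 16.2 in Th2 and 25.9 in Th17. Differences past 2-fold were rare among members here, with 1 between Th17 and Th1 and 0 between Th17 and Th2, against 15.5% and 19.3% of all genes. These are single libraries with no test. The shares of all genes lower in Th17, or within 0.1 between Th1 and Th2, were not counted.

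Loss of Bach2 went with a modest and uneven shift of the ribosomal protein genes in iTreg cells. On the authors' scaling, 47 members were higher and 5 lower in Bach2KO of the 79 tested (limma, adjusted p under 0.05), so 65.8% were called where 74.7% of all 11473 genes were. Among all genes 41.0% were called higher and 33.6% lower. The median member difference was 0.23 on the log2(FPKM + 0.5) scale, beside 0.07 over all genes, and ranged from −1.31 to 2.07. Only 4 members moved by at least 2-fold, against 23.3% of all genes. The libraries of the 2 genotypes did not overlap at 59 of the 79 members, against 79.4% of all genes.

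The direction of the whole set depended on how the libraries were scaled. After quantile normalization 15 members were higher and 29 lower, with a median of −0.07 beside −0.09 over all genes (of all genes, 75.0% called, 32.4% higher and 42.6% lower). With libraries brought to 1 sum over loci no shorter than 300 bp (equal sums), 19 were higher and 28 lower, with a median of −0.04 beside −0.18 (75.8% of all genes called, 28.6% higher and 47.2% lower). With each library centred on its median member, which itself brings the members near balance, 27 were higher and 23 lower (73.0% of all genes called, 29.4% higher and 43.6% lower). Only 20 of the 79 members were called in the same direction under all 4 scalings, 15 higher and 5 lower, where 61.8% of all genes were (28.2% higher and 33.6% lower). The members' summed level was 47372 ± 619 FPKM in WT and 54516 ± 2252 FPKM in Bach2KO (SD, n = 3 each), a ratio of 1.15, while the ratio of the sums over all loci was 1.26. Both differences had an exact permutation p of 0.1, the smallest that 3 libraries against 3 can give. Their share of summed FPKM was 10.9% ± 0.196 and 9.94% ± 0.479 (SD, n = 3 each; exact permutation p = 0.1, two-sided), whereas their share of implied reads was 3.88% ± 0.0314 and 4.07% ± 0.199 (exact permutation p = 0.2).

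**Figure D4:**
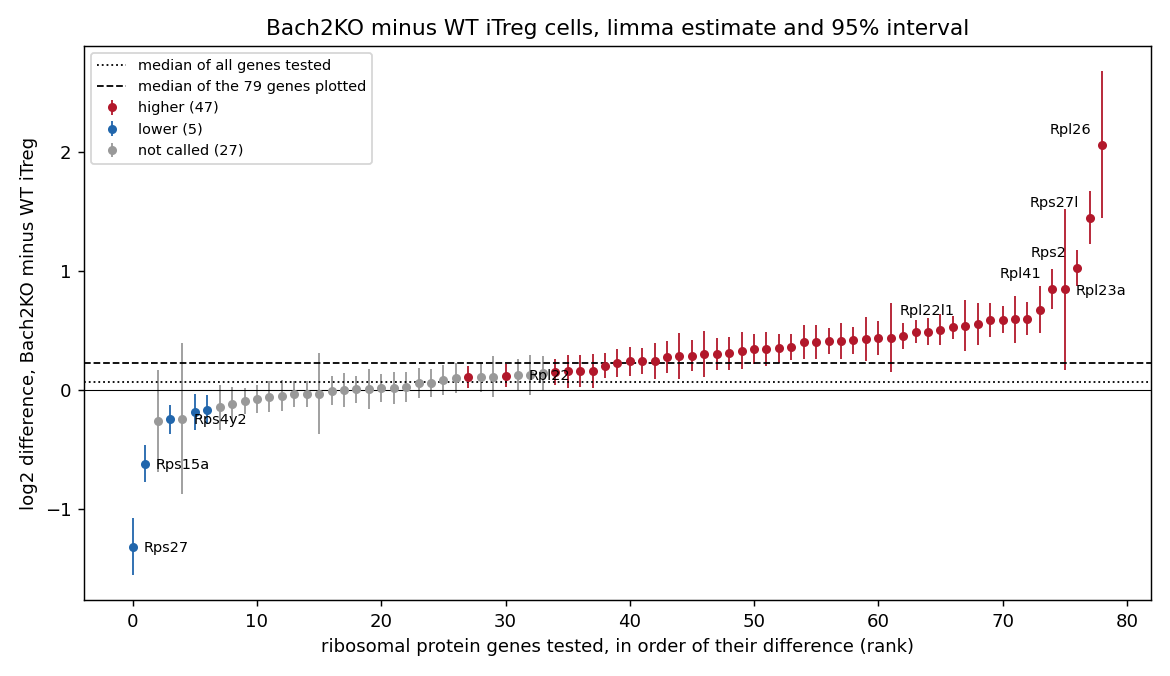
Bach2KO minus WT difference of the 79 members tested, on the log2(FPKM + 0.5) scale with its 95% interval from limma, in order of size and coloured by the call on the authors' scaling. Of the 79, 47 are called higher, 5 lower and 27 neither, with Rps27 lowest at −1.31 and Rpl26 highest at 2.07.

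Of the large-subunit genes, 27 of 43 rose and 2 fell on the authors' scaling (median 0.29), and of the small-subunit genes 15 of 30 rose and 3 fell (median 0.12). Of all genes tested, 41.0% were called higher and 33.6% lower. The medians became −0.01 and −0.18 after quantile normalization, 0.02 and −0.15 with equal sums, and 0.08 and −0.09 with centring on the median member. The small-subunit median thus turned under each of these scalings, while the large-subunit median lay between −0.01 and 0.08. The order of the subunits was kept. Rpl26, a large-subunit protein that also binds the p53 messenger RNA, was at 3.39, 1.72 and 3.25 FPKM in WT and at 14.5, 14.3 and 10.3 FPKM in Bach2KO. Its groups did not overlap and the difference was 2.07 (SE 0.25, limma adjusted p = 0.000498), but only 19, 9 and 18 reads were implied in WT, and its locus overlaps another annotated gene. Rps2, at the messenger RNA entry of the small subunit, was at 58.0, 59.7 and 59.8 FPKM in WT and at 132, 117 and 115 FPKM in Bach2KO. It rose by 1.03 (SE 0.06, limma adjusted p = 2.37e-05), with no overlap, and is one of the genes with many copies. Rpl41 was at 1345, 1321 and 1376 FPKM in WT and 2385, 2297 and 2613 FPKM in Bach2KO, which is 0.85 higher (SE 0.07, limma adjusted p = 8.02e-05).

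Rpl23a was called higher by 0.85, with an SE of 0.28 and a limma adjusted p of 0.0306. Its Bach2KO values were 555, 530 and 567 FPKM, above all WT values, and the call was lost when any single Bach2KO replicate was left out (largest limma adjusted p 0.0749) and under each of the 3 other scalings. The difference was 0.52 without WT replicate 3, whose low level is given above. Rps20, a small-subunit head protein, went from 1194, 1201 and 1217 to 1830, 1740 and 1909 FPKM, which is 0.60 higher (SE 0.06, limma adjusted p = 0.000164). Rps12 rose by 0.59 and Rpl3, which lies near the peptidyl transferase centre, by 0.59 too, both with no overlap between genotypes. Rps19bp1, the binding partner of Rps19, rose by 0.68, from 13.4 ± 0.940 to 21.7 ± 1.81 FPKM (SD, n = 3 each).

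The falls were fewer. Rps27, a zinc-finger protein of the small subunit, was at 14.4, 15.9 and 17.0 FPKM in WT and at 6.65, 6.20 and 5.32 FPKM in Bach2KO, so every Bach2KO library lay below every WT library. The difference was −1.31 (SE 0.10, limma adjusted p = 6.12e-05) and lay between −1.57 and −1.31 under the 4 scalings. The implied reads were 113, 122 and 138 in WT and 59, 49 and 39 in Bach2KO. None of its 50-base coding windows was unique, and its locus overlaps another annotated gene. Rps15a was at 66.2, 64.0 and 64.6 FPKM in WT and at 42.5, 38.7 and 45.5 FPKM in Bach2KO, a fall of 0.62 on the log2 scale (SE 0.06, limma adjusted p = 0.000239). Rpl37a fell by 0.24, Rps21 by 0.18 and Rpl18 by 0.16. Of these 3, Rps21 and Rpl18 lost the call when single libraries were left out (largest limma adjusted p 0.119 and 0.0811).

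Other members lay close to 0 on the authors' scaling. Rps9 differed by 0.00 (95% interval −0.14 to 0.14), Rps18 by 0.01 (−0.16 to 0.18), Rpl13a by 0.02 (−0.12 to 0.15), Rpl7 by −0.04 (−0.18 to 0.09) and Rps29 by 0.06 (−0.06 to 0.19). Rps7, Rpl31 and Rpl38 had the smallest rises that passed the test, 0.11, 0.12 and 0.16. Each of these 8 was below 0 after quantile normalization. Just inside the threshold lay Rps3 (limma adjusted p = 0.0405) and just outside it Rpl22 (limma adjusted p = 0.0730).

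Proteins with known roles outside the ribosome were among the genes called. Rpl5 and Rpl11, which with 5S ribosomal RNA hold back the p53 inhibitor Mdm2, rose by 0.41 (SE 0.06) and 0.24 (SE 0.05). After quantile normalization Rpl11 was called lower instead, by −0.16 (limma adjusted p = 0.0444), and Rpl5 was not called. Of the 8 genes in the list of 5S and p53 surveillance, all of them members, 7 rose, with the largest rises in Rpl26, Rps27l and Rpl5. Of 13 members mutated in Diamond-Blackfan anaemia, 9 rose, including Rpl15 (0.49), Rpl5 and Rps19 (0.35). Beside these counts, 41.0% of all genes tested were called higher and 33.6% lower, and 59.5% and 6.33% of all members tested. The medians of the 2 lists were 0.30 and 0.21 and became −0.11 and −0.08 after quantile normalization, and 0.02 and −0.07 with equal sums. Rps6, the target of the S6 kinases, rose by 0.41, Rps27a, made as a fusion with ubiquitin, by 0.49, Rps4x by 0.25, Rpl39 by 0.31 and Rpl10 by 0.53. Of these 5, Rps27a and Rpl10 kept the call under all 4 scalings.

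Paralogs of ribosomal proteins differ in tissue range and some replace their partner in the ribosome. On the authors' scaling, 4 of the 5 tested rose and 1, Rps4y2, was not called, beside 59.5% of members and 41.0% of all genes called higher. Their median difference was 0.54, beside 0.07 over all genes. After quantile normalization 2 were called, both higher, beside 32.4% of all genes called higher. The median of the 5 was then 0.24, beside −0.09 over all genes. Rpl10l and Rpl3l were at or near 0 in every library, and so was Rpl39l in WT: its values were listed at 0, 0 and 0.0513 FPKM in WT and 1.22, 0.967 and 0.650 FPKM in Bach2KO. Because those 3 paralogs missed the level filter, the counts over the 5 do not describe all 8. Rps4y2 was at 1.12, 2.23 and 1.59 FPKM in WT and 0.888, 1.82 and 1.24 FPKM in Bach2KO, with overlapping groups and a difference of −0.24 (SE 0.26, limma adjusted p = 0.430).

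Rps27l, a paralog of Rps27 that p53 is known to induce, moved opposite to Rps27. It was at 51.6, 45.3 and 57.8 FPKM in WT and at 139, 147 and 138 FPKM in Bach2KO, which is 1.45 higher (SE 0.09, limma adjusted p = 3.03e-05) with no overlap. The ratio of Rps27l to Rps27 was 3.59, 2.85 and 3.41 in WT and 21.0, 23.7 and 25.9 in Bach2KO (exact permutation p = 0.1, the smallest possible, two-sided). In the single libraries it was 1.04 in naive cells, 2.69 in Th1, 18.9 in Th2 and 15.5 in Th17. The ratio was thus low in naive, Th1 and WT iTreg cells and high in Th2, Th17 and Bach2KO iTreg cells. In naive, Th1, Th2 and Th17 cells Rps27 stood at 29.0, 35.6, 4.92 and 5.21 FPKM and Rps27l at 30.1, 95.7, 93.0 and 80.8 FPKM. Among the helper cultures the ratio thus moved mainly with Rps27, while Rps27l was lower in naive cells than in each helper culture. Between the genotypes both genes differed. The implied reads of Rps27 were 250 in naive cells, 195 in Th1, 24 in Th2 and 23 in Th17. The coding sequences of the pair are shown in full because reads have to tell them apart: both have 255 bases, 61 of which differ (76.1% identity), 53 of them at the third position of a codon. Differing bases are in capitals. Rps27 lies at chr3:90016589-90017570 (minus strand) and Rps27l at chr9:66793925-66797316 (plus strand), both in NCBIM37.
Rps27: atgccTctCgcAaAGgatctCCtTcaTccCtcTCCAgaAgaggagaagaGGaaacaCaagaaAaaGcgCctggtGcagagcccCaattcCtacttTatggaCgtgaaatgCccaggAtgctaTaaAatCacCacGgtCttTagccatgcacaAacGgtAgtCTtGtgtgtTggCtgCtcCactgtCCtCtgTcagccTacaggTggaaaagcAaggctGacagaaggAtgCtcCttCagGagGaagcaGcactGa
Rps27l: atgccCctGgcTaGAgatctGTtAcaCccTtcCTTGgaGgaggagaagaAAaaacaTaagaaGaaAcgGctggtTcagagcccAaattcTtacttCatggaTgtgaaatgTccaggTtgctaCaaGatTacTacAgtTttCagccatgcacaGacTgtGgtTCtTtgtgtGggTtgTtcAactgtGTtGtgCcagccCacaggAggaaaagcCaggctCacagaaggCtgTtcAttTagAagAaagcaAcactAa
None of the 50-base windows of Rps27 was unique in the genome, against 51.0% of those of Rps27l, and Rps27 had matches at 11 other places and Rps27l at 4.

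Rpl22l1, a paralog of Rpl22 whose level Rpl22 is known to restrain, was at 96.5, 85.3 and 98.1 FPKM in WT and at 132, 126 and 151 FPKM in Bach2KO. It rose by 0.54 (SE 0.09, limma adjusted p = 0.00168), and Rpl22 differed by 0.13 (SE 0.05, limma adjusted p = 0.0730). Their ratio was 0.801, 0.690 and 0.755 in WT and 0.960, 0.980 and 1.05 in Bach2KO, with no overlap (exact permutation p = 0.1). It was 0.822 in naive cells, 1.34 in Th1, 1.10 in Th2 and 1.09 in Th17. Rpl7l1 rose by 0.60 (SE 0.08) from 17.8 ± 0.454 to 27.3 ± 2.99 FPKM (SD, n = 3 each), while Rpl7 was not called. Rpl36al, an intronless copy of Rpl36a, and Rpl36a itself both rose, by 0.43 (SE 0.08) and 0.56 (SE 0.07), and the ratio of the pair overlapped between genotypes (exact permutation p = 0.3). In naive cells Rpl36al was at 339 FPKM and Rpl36a at 78.97 FPKM, a ratio of 4.29, against 1.07 to 1.58 in the other 9 libraries.

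**Figure D5:**
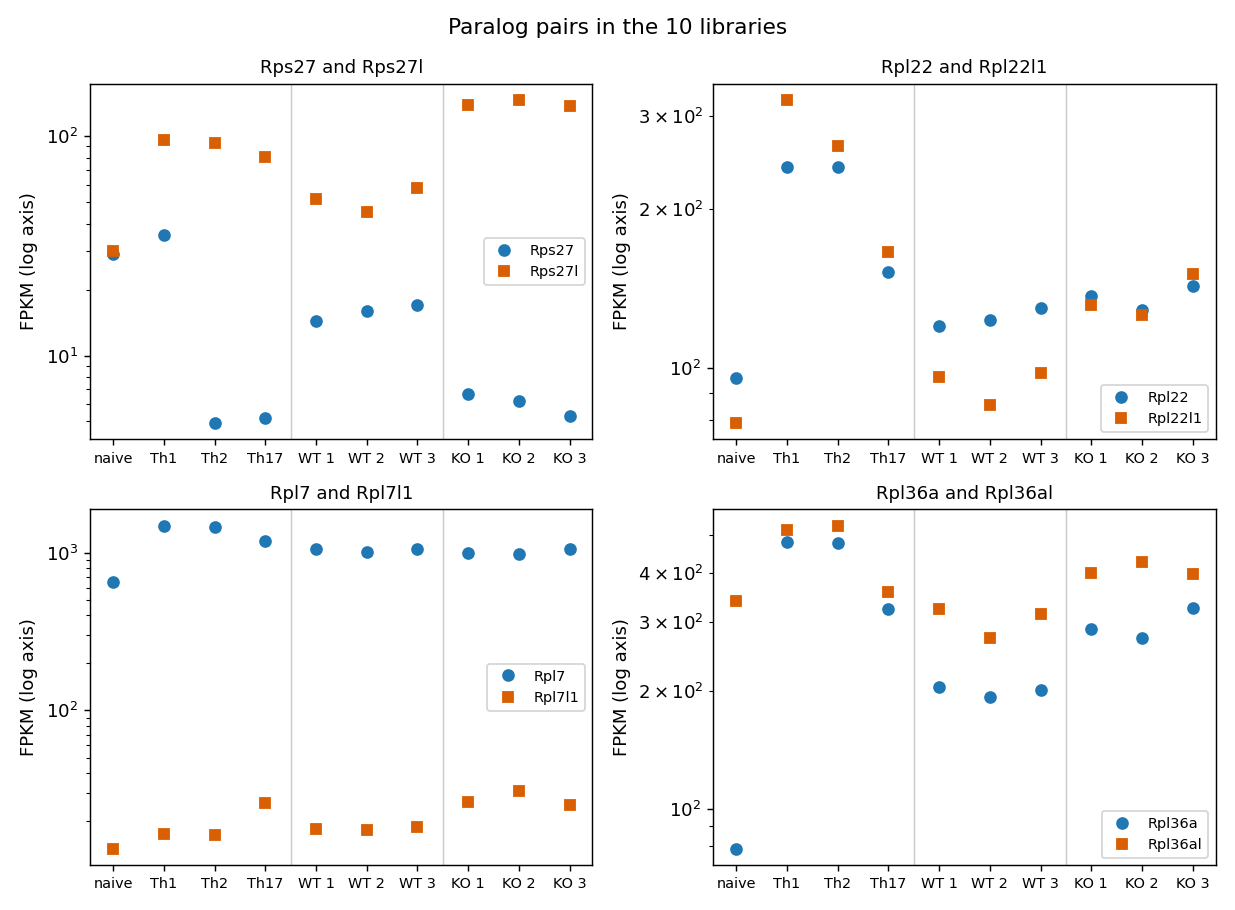
FPKM on log axes of 4 ribosomal protein genes and their paralogs in the 10 libraries, 1 point per library. Rps27 and Rps27l are level in naive cells (29.0 and 30.1 FPKM) and lie 21.0-fold to 25.9-fold apart in the Bach2KO libraries, and Rpl22l1 lies below Rpl22 in naive and WT iTreg cells and above it in the helper cultures.

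Genes that work with the ribosomal proteins were compared by lists that hold no member. Over all genes tested, 41.0% were called higher and 33.6% lower on the authors' scaling, with a median of 0.07. Of 7 other subunit genes found, such as Rplp0 and Rplp1 of the stalk, 5 rose, with a median of 0.26. With quantile normalization 1 was higher and 3 lower (median 0.02), as with equal sums (median −0.01), so the sign of the median turned with the scaling. Rpsa rose most, by 0.72 (SE 0.07), from 638 ± 10.8 to 1050 ± 84.8 FPKM (SD, n = 3 each). Ribosome biogenesis genes, which make and assemble ribosomal RNA, had a higher median: 46 of 63 rose and 3 fell, with a median of 0.69, among them Eif6 (0.86), Riok1 (0.68) and Mina (0.50), while Taf1c of the RNA polymerase I machinery fell by 0.96 on the log2 scale. The summed level of this list was 1576, 1478 and 1721 FPKM in WT and 2384, 2934 and 2127 FPKM in Bach2KO replicates 1 to 3. Of the 3 Bach2KO libraries, replicate 2 was the highest at 59 of the 63 biogenesis genes. Without it 47 rose and 5 fell, with a median of 0.59, a setting chosen after seeing the data. It was also the highest Bach2KO library at 63 of the 76 mitochondrial ribosomal protein genes and at 39 of the 56 initiation factor genes, whose medians without it were 0.44 and 0.39. The same count over all genes was not made, so these counts cannot be called particular to the lists. Summed FPKM over all loci was also largest in Bach2KO replicate 2 (553892, against 546203 in replicate 1 and 545183 in replicate 3). Of the 76 mitochondrial ribosomal protein genes 61 rose and 3 fell, with a median of 0.53. Mrpl18 rose by 1.18 (SE 0.04) and Mrpl13 by 1.03 (SE 0.06), and Mrps5 fell by 1.82 on the log2 scale (SE 0.09). Of 56 translation initiation factor genes 36 rose and 15 fell, with a median of 0.43. Over the 4 scalings the medians ran from 0.43 to 0.69 for biogenesis and from 0.26 to 0.53 for mitochondrial ribosomal proteins. For initiation factors they ran from 0.16 to 0.43, and each of these 3 lists was above 0 under every scaling. The median ran from −0.07 to 0.23 for the 79 members tested. It ran from −0.11 to 0.17 for the 73 of them that are neither paralogs nor Rps19bp1, and from −0.18 to 0.07 over all genes.

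Against naive cells the order of these lists was another one. The median biogenesis gene differed by −0.31 in Th1, −0.31 in Th2, 0.13 in Th17 and −0.15 in WT iTreg, with 5 of 63 at least 2-fold higher and 11 lower in Th1. The median mitochondrial ribosomal protein gene differed by 0.65, 0.50, 0.58 and 0.42. Of these 3 lists, the cytosolic ribosomal proteins had the highest median in Th1 and Th2 (1.06 and 1.03), and the biogenesis median lay below the median of all genes.

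Among other genes with a TOP tract in their messenger RNA, 10 of 19 rose and 6 fell (median 0.32), which became 8 and 8 after quantile normalization (median 0.06) and 8 and 9 with equal sums (median 0.04). On the authors' scaling, Vim rose by 2.01 and Nap1l1, a histone chaperone, by 1.31, and Tmem66 fell by 1.65 and Eif4a2 by 1.08, on the log2 scale. Of 9 host genes of small nucleolar RNAs, 3 rose (Snhg3, Snhg4 and Snhg6, by 0.77, 0.84 and 0.27) and 1, Snhg12, fell by 0.54. Of the 20 ribosomal protein genes that carry such RNAs in their own loci 13 rose and 0 fell, and of the other 59 tested 34 rose and 5 fell, beside the 41.0% and 33.6% of all genes. After quantile normalization the counts were 4 higher and 7 lower of the 20, and 11 and 22 of the 59. With equal sums they were 6 and 6, and 13 and 22, so the absence of falls among the 20 held on the authors' scaling and not on these 2. Growth regulators split, with 7 of 20 higher and 8 lower. Mxd3, a Max partner of the Mxd family, rose by 3.16 and Mxd1 by 0.90, and the mTOR restrainers Sesn1 and Tsc1 fell by 2.15 and 0.77. Myc, which drives ribosome production, and Larp1, which binds TOP tracts, were picked after their values had been seen: Myc was at 23.6, 22.1 and 27.7 FPKM in WT and 66.5, 107 and 49.9 FPKM in Bach2KO, and Larp1 at 24.8, 22.3 and 27.4 and at 49.5, 63.9 and 40.5 FPKM.

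Bach2 peaks were no more common at ribosomal protein genes than at other expressed genes. A peak lay within 1 kb of the start of 13 of 81 members with a known strand (16.0%), against 19.2% of 11141 tested loci. The 13 were Rpl3, Rpl5, Rpl13, Rpl14, Rpl22, Rpl22l1, Rpl24, Rpl36al, Rpl39, Rps4x, Rps7, Rps18 and Rps20. The highest peak was the one in Rpl22l1 (chr3:28704210-28705037, mm9), with its summit 374 bases past the start, 239 tags, a score of 1752 and a fold enrichment of 27.8 in the authors' peak list, in which 99.0% of the 22494 peaks had a lower score. Next came Rps20 (score 806), Rpl14 (741) and Rps7 (392). These values are the authors', from 1 ChIP library with no replicate.

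The 7-base site TGANTCA, which Bach2 shares with AP-1 factors and which reads the same on both strands, was found within 100 bases of the summit at 1 of the 13 peaks, that of Rpl13. It was found at 43.1% of all 22494 peaks and at 25.9% of the 2121 peaks within 1 kb of a tested start. The 101 bases around 2 summits, at the one match and at the highest peak, are shown 5′ to 3′ on the gene's strand from NCBIM37, with the match in capitals. They span chr8:125625762-125625862 (plus strand) at Rpl13 and chr3:28704757-28704857 (plus strand) at Rpl22l1.
Rpl13: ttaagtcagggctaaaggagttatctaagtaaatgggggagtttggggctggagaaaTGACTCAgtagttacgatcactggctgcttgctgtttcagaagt
Rpl22l1: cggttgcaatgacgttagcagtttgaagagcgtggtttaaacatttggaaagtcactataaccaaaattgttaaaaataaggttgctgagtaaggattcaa
Of the 13 members with a peak, 10 were called higher in Bach2KO and 0 lower on the authors' scaling, with a median difference of 0.41 and a range of −0.08 to 0.60. Of the 65 tested members without one, 36 were higher and 5 lower, with a median of 0.16. Of all tested genes with a peak 44.3% were higher and 32.9% lower, with a median of 0.11, and of those without one 40.7% and 34.0%, with a median of 0.07. The member counts moved with the scaling, in alternatives chosen after seeing the data. After quantile normalization 3 of the 13 were higher and 3 lower (median 0.05), and 11 and 26 of the 65 (median −0.14), beside 35.8% and 41.6% of all genes with a peak. With equal sums they were 4 and 3 (median 0.14), and 14 and 25 (median −0.11), beside 32.1% and 47.0%. No test was made of the difference between members with and without a peak. The 4 members Rpl26, Rps27l, Rps2 and Rps27 described above had no peak within 1 kb, and the start of Rpl41 was not analysed here.

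Promoter windows of RefSeq (GRCm38.p6, 250 bases before to 50 after the start) were held for 61 of the 82 members. A C followed by at least 5 pyrimidines began within 5 bases of the start, on the gene's strand, in 25 of them (41.0%), against 11.9% of 27025 genes. The GC-box letters GGGCGG were present on either strand in 60.7% against 38.2%, the ETS letters CCGGAAG in 37.7% against 9.93%, the YY1 letters AAGATGG in 16.4% against 7.28%, the E-box CACGTG in 9.84% against 8.09%, TATAAA in 9.84% against 15.7%, and TGANTCA in 3.28% against 8.97%. These are counts of letters, not of bound sites. For Rps27, Rps27l, Rpl13a, Rps6 and Rpl22l1, 60 bases from 30 before the start onward are shown 5′ to 3′ on the gene's strand, with any tract in capitals. They lie at chr3:90213619-90213678 (minus strand), chr9:66946056-66946115 (plus strand), chr7:45128716-45128775 (minus strand), chr4:86857338-86857397 (minus strand) and chr3:28805478-28805537 (plus strand), in that order.
Rps27: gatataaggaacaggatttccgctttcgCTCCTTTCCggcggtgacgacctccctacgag
Rps27l: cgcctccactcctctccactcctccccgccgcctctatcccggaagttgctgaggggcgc
Rpl13a: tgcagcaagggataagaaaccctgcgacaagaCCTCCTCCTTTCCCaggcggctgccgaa
Rps6: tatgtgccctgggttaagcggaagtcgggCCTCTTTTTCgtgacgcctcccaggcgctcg
Rpl22l1: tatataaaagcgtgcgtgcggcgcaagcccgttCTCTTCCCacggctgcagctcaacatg
The tract had 9 bases in Rps27, 14 in Rpl13a, 10 in Rps6 and 8 in Rpl22l1, and none was found at either start listed for Rps27l.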

How the data were processed

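Each expression file holds FPKM values made by the authors with TopHat and Cufflinks from unique 50-bp reads aligned to mm9, per the labels' protocols. Their versions, and which gene models they used, are not stated in the sources used. The peak list was made with MACS 1.4.0beta per the file headers, with a p-value limit of 1e-05, from 8992019 ChIP and 9999999 input tags. Its tag counts, scores (10 times −log10 of the p-value), fold enrichments (a ratio) and FDR in percent are as deposited by the authors. Loci were joined by symbol and position, since the files list them in different orders.

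The members and the gene lists were chosen with earlier results of these data known. For the 6 iTreg libraries, log2(FPKM + 0.5) was fitted with limma (version 3.58.1, R 4.3.3, functions lmFit and eBayes with a trend) at loci averaging 0.5 FPKM or more, with Benjamini-Hochberg adjustment over all 11473 loci, 0.05 as the threshold and two-sided tests. On this scale changes of low genes are understated. The 4 single libraries were compared by difference only, counting at least 2-fold. The fit was tested on simulated data. No count test was run, since the values are FPKM.

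Named members were the 8 largest rises and the 8 lowest differences among called, non-overlapping members with 5 FPKM or more in the higher group, the 4 highest and 4 lowest levels, the 3 largest and 3 smallest differences of each helper library, paralogs and a few proteins by name, and up to 4 genes of each list by smallest adjusted p. Exact 50-base matches were searched in NCBIM37, the same assembly as mm9, with coding sequences of GENCODE vM1. Promoter windows came from RefSeq (GRCm38.p6). Implied reads, (2 × FPKM divided by the distance to the upper bound) squared, cover counting error only. Alternatives were other pseudocounts, level filters and scalings, a robust spread, a replicate block and leaving out each library. All libraries have the same run date in the labels, so no batch could be set apart. Values of a few single genes are not reported here.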

Additional observations from a re-analysis of the deposited data

How the results depend on the processing

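The sign of the member median turned under 2 scalings. With quantile normalization and equal sums, 15 and 19 members were called higher in Bach2KO and 29 and 28 lower, and the member median was −0.0746 and −0.0444. Centring on the members gave 27 higher and 23 lower and a median of 0.0219, a balance that the centring itself sets. Members called lower numbered 3 with no level filter and from 3 to 7 when single libraries were left out. The difference in the members' share of implied reads was 0.187 percentage points, against the opposite sign for summed FPKM. Against naive, quantile normalization and equal sums gave 18 and 23 higher members in Th1 (medians 0.37 and 0.57), 18 and 23 in Th2 (0.36 and 0.56), 10 and 13 in Th17 (0.16 and 0.33), and 9 and 13 in Bach2KO iTreg (−0.15 and 0.21). WT iTreg had 10 higher members after quantile normalization, and medians of 0.00086 and 0.18 under these 2 scalings. A fold of 1.5 gave 42, 34 and 46 in Th17, WT and Bach2KO iTreg, and no level filter gave medians of 0.61 in Th17 and 0.36 in WT iTreg. Medians for Th1 minus Th2 were −0.0128 and −0.0233, for Th17 minus Th1 −0.26 and −0.33, and for Th17 minus Th2 −0.31 and −0.34. Windows of 5000 and 10000 bases around the starts held a peak for 20 and 33 members (24.7% and 40.7%), against 31.2% and 42.6% of tested loci. The cause of the other differences was not tested.

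Of 598 values over 40 named members and up to 15 settings, 494 kept direction and call, 62 lost the call, 8 gained it and 34 changed sign. The changed signs under quantile normalization were Rpl11 −0.16, Rpl13a −0.31, Rpl22 −0.18, Rpl31 −0.17, Rpl38 −0.0389, Rps18 −0.19, Rps19 −0.0559, Rps29 −0.16, Rps4x −0.0376, Rps7 −0.18 and Rps9 −0.26. Under equal sums they were Rpl11 −0.0305, Rpl13a −0.26, Rpl22 −0.14, Rpl31 −0.15, Rpl38 −0.12, Rps18 −0.26, Rps29 −0.21, Rps4x −0.0250, Rps7 −0.16 and Rps9 −0.27. Under centring they were Rpl13a −0.19, Rpl22 −0.0777, Rpl31 −0.0829, Rpl38 −0.0503, Rps18 −0.20, Rps29 −0.14, Rps7 −0.0947 and Rps9 −0.20. Leaving out single libraries turned Rpl13a (range −0.0188 to 0.0546), Rps18 (−0.0456 to 0.0468) and Rps9 (−0.0270 to 0.0317).

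Deviations of same-numbered WT and Bach2KO libraries correlated at −0.04, −0.04 and 0.01 over all genes. Over the members they correlated at 0.38, 0.05 and −0.17, where differently numbered libraries ran from −0.41 to 0.31. These values cannot tell whether same-numbered libraries belong together. With the replicate block 44 members were called, 41 higher and 3 lower, and 7886 of 11473 genes in all. Precision is limited by 3 libraries a group, by single helper and naive libraries, and by few implied reads for low members such as Rpl26.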
